A study of Drosophila melanogaster with 18 samples.

Results

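The replication-dependent histone genes of Drosophila melanogaster were examined for ChIP-seq peaks of GAF, a transcription factor, and of H4K8ac, an acetylation of lysine 8 in histone H4, in mitotic and interphase embryos. Members were all genes of the dm6 annotation (Ensembl release 115) whose symbol begins with His1:, His2A:, His2B:, His3: or His4:. They numbered 111 of 18315 annotated genes, with 23 His1, 20 His2A, 23 His2B, 23 His3 and 22 His4 genes. All of them lie on chromosome arm 2L within 125 kb, from His1:CG33801 at chr2L:21416953-21417975 to His3:CG33866 at chr2L:21541153-21541681. A gene was counted with a list when a peak of that list overlapped it or came within 500 bp, and a promoter was counted when a peak overlapped the 100 bp on either side of the annotated transcription start site (TSS).

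Wild type yw embryos, collected 1 to 2.5 h after egg laying by the labels (the methods give a later start and the same end), were stained for histone H3 phosphorylated on serine 10, a mark of mitotic chromosomes, and sorted by it into mitotic and interphase embryos, at 1000 embryos per sample. There were 18 samples. ChIP with anti-GAF comprised 2 mitotic and 3 interphase samples, ChIP with anti-H4K8ac comprised 2 mitotic and 2 interphase samples, and the other 9 samples were the matching inputs. The peak lists give the positions of peaks called on the mean of the replicates, without height or read number, so the depth behind a peak is unknown, no spread between replicates could be computed, and a peak that is called at 1 stage only is not a measured difference in level.

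Replication-dependent histone genes encode the histones that package newly made DNA. They are transcribed in S phase, in a nuclear compartment named the histone locus body, and their mRNAs end in a stem-loop instead of a poly(A) tail. In Drosophila the genes form a tandem repeat whose unit holds 1 gene of each of the 5 classes, with His3 and His4 transcribed away from a shared promoter, and His2A and His2B from another. The promoter between His3 and His4 is known for its GA repeats, which the zinc finger protein CLAMP binds and from which the histone locus body is built. GAF, the product of the Trl gene, also recognises GA repeats. The assembly holds fewer copies of the unit than fly genomes are known to carry.

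The regions shown first are those that the GAF lists separate: the shared promoter of His3 and His4, the shared promoter of His2A and His2B, and the DNA upstream of His1. All are printed 5′ to 3′ on the plus strand of dm6, with capitals marking the GAGAG matches (GAGAG, or CTCTC where the match is on the minus strand, counted without overlap). The region between the start sites of His4:CG33909 and His3:CG33803 in the first unit spans chr2L:21419944-21420128. The region between His2B and His2A:CG31618 spans chr2L:21423609-21423736 and is from the second unit, because the first has the pseudogene His-Psi:CR33802 in place of a His2A gene. The 150 bp upstream of His1:CG33801 span chr2L:21416803-21416952.
His4 to His3, first unit: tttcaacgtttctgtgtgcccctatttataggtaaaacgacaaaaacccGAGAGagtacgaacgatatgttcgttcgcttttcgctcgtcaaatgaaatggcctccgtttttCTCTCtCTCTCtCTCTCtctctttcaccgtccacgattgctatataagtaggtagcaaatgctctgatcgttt
His2B to His2A, second unit: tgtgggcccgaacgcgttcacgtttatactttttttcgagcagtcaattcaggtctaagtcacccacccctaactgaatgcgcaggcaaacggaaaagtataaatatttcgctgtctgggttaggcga
Upstream of His1, first unit: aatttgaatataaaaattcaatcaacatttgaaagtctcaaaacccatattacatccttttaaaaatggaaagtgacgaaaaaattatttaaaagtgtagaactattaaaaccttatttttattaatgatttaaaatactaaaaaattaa

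The His4 to His3 sequence holds 4 matches, of which 3 stand side by side in an unbroken run of alternating C and T, and the other sequences hold none. The same division held over the whole array when matches were counted in windows around each TSS. In windows from 250 bp before to 50 bp after the TSS, no match was found in any of the 23 His1, 20 His2A and 23 His2B promoters. All 23 His3 promoters held 4 or 5, and the 22 His4 promoters held 3 to 5, with 4 or more in 21 of them. Among the windows of all 18312 genes with a full window, 29.4% held at least 1 match and 2.19% at least 4, or 1.96% without the histone genes. The longest run of alternating C and T, or of G and A on the other strand, was 19 to 25 bp at the His3 promoters. A run of at least 19 bp was in the windows of 45 of the 111 histone genes and in 38 of 18201 windows of all other genes (0.209%). TATAAA was searched as exact letters on the strand of the gene. All 23 His1, 20 His2A and 23 His2B windows held it, against 30.1% of all windows. It was in 17 of 22 His4 windows and in 0 of 23 His3 windows. The His3 promoter sequences printed here hold tatataag, which this search does not count, so they are not shown to lack a TATA element. Nor does a match show such an element, since its place in the window was not considered. In the printed His1 sequence the only match lies near the upstream end, far from the TSS. Among the His4 genes without TATAAA, His4:CG33875, His4:CG33873, His4:CG33871 and His4:CG33869 are annotated with a start 25 bp from that of His3. No GAGAG match lies between these starts, and the matches in the windows of these His4 genes are downstream of their own annotated start. These matches describe the letters of the windows and are not evidence of binding.

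GAF peaks were found at His3 and His4 genes and at no His1, His2A or His2B gene in either stage. In mitosis, 33 of the 111 histone genes (29.7%) had a GAF peak within 500 bp, beside 7.68% of all annotated genes. In interphase, 45 (40.5%) had one, beside 17.6% of all annotated genes. By class, the mitotic list reached 17 of 23 His3 genes (73.9%) and 16 of 22 His4 genes (72.7%), and the interphase list reached all 23 His3 genes and all 22 His4 genes. The same 33 and 45 counts were obtained for promoters, for which the share over all annotated genes was 2.80% in mitosis and 7.62% in interphase.

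The 3 other classes lay beyond 500 bp of the nearest GAF peak, His2A by the smallest margin. Measured from the gene, as the count was made, the distance to the nearest mitotic peak was at least 622 bp for His2A, 1187 bp for His2B and 1502 bp for His1. To the nearest interphase peak it was 622 to 2231 bp for His2A (median 721.5 bp), 1137 to 2805 bp for His2B and 1452 to 2027 bp for His1. The 3′ end of His2A faces the peak, and its TSS was at least 1114 bp away in both stages. With a distance of 1000 bp, 13 of the 20 His2A genes in mitosis and 19 in interphase would have been counted, raising the totals to 46 in mitosis and 64 in interphase, while no His1 or His2B gene would. The share of all annotated genes at that distance is not given here. Every His3 TSS lay inside an interphase peak and every His4 gene within 85 bp of one. Since the genes are copies of 1 unit, their number is not a number of independent observations.

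**Figure D1:**
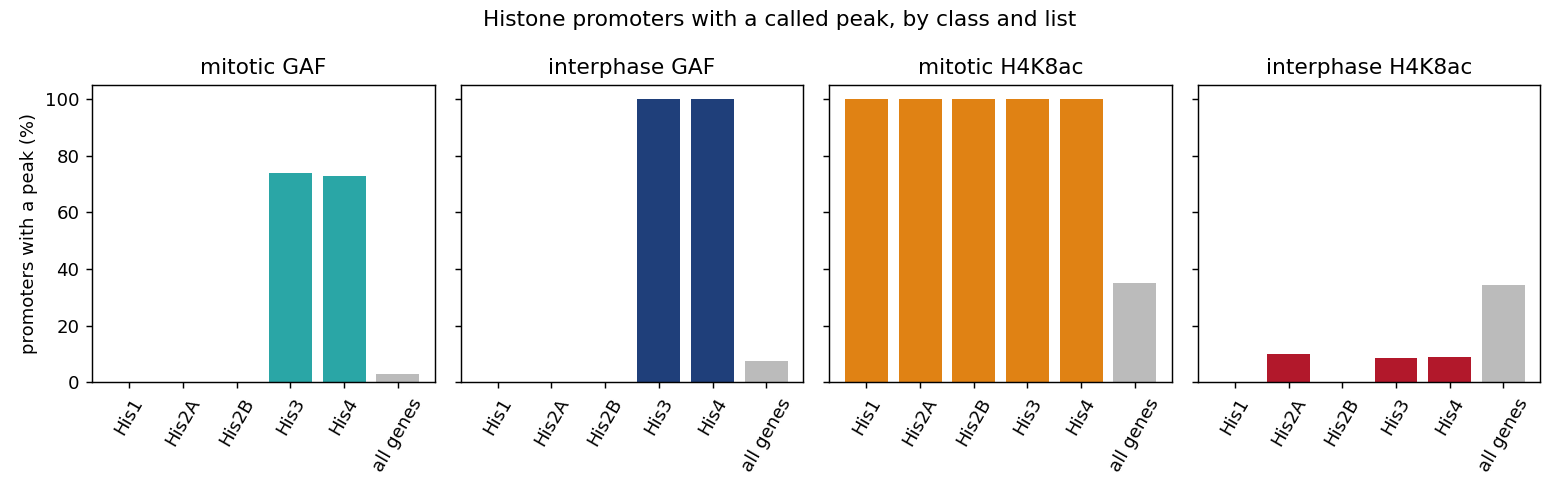
Share of promoters with a called peak (%, vertical axis) for the 5 histone classes and for all annotated genes (grey), with 1 panel for each of the 4 lists. Among the classes, GAF peaks are seen at His3 and His4 promoters alone, at 73.9% and 72.7% in mitosis and 100% in interphase, while mitotic H4K8ac peaks are on 100% of the promoters of each class and interphase H4K8ac peaks on at most 10%.

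The GAF peaks formed a regular series, with 1 interphase peak for each His3 promoter and at most 1 in mitosis. There were 17 in mitosis, from chr2L:21419901-21420201 to chr2L:21540951-21541251, and 23 in interphase, from chr2L:21419851-21420251 to chr2L:21540951-21541251. Neighbouring His3 start sites were a median of 5045 bp apart, with 1 gap of 14201 bp across a roo transposable element of 9135 bp. The longest peak in both stages was at His3:CG31613 in the second unit, at chr2L:21424851-21425351 in mitosis and chr2L:21424851-21425401 in interphase. The shortest was at His3:CG33806 in the third unit, with 150 bp in mitosis and 200 bp in interphase. Peak lengths in the array had a median of 300 bp in mitosis, as did the whole mitotic list of 1839 peaks, and a median of 300 bp in interphase, where the whole list of 4970 peaks had 400 bp.

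**Figure D2:**
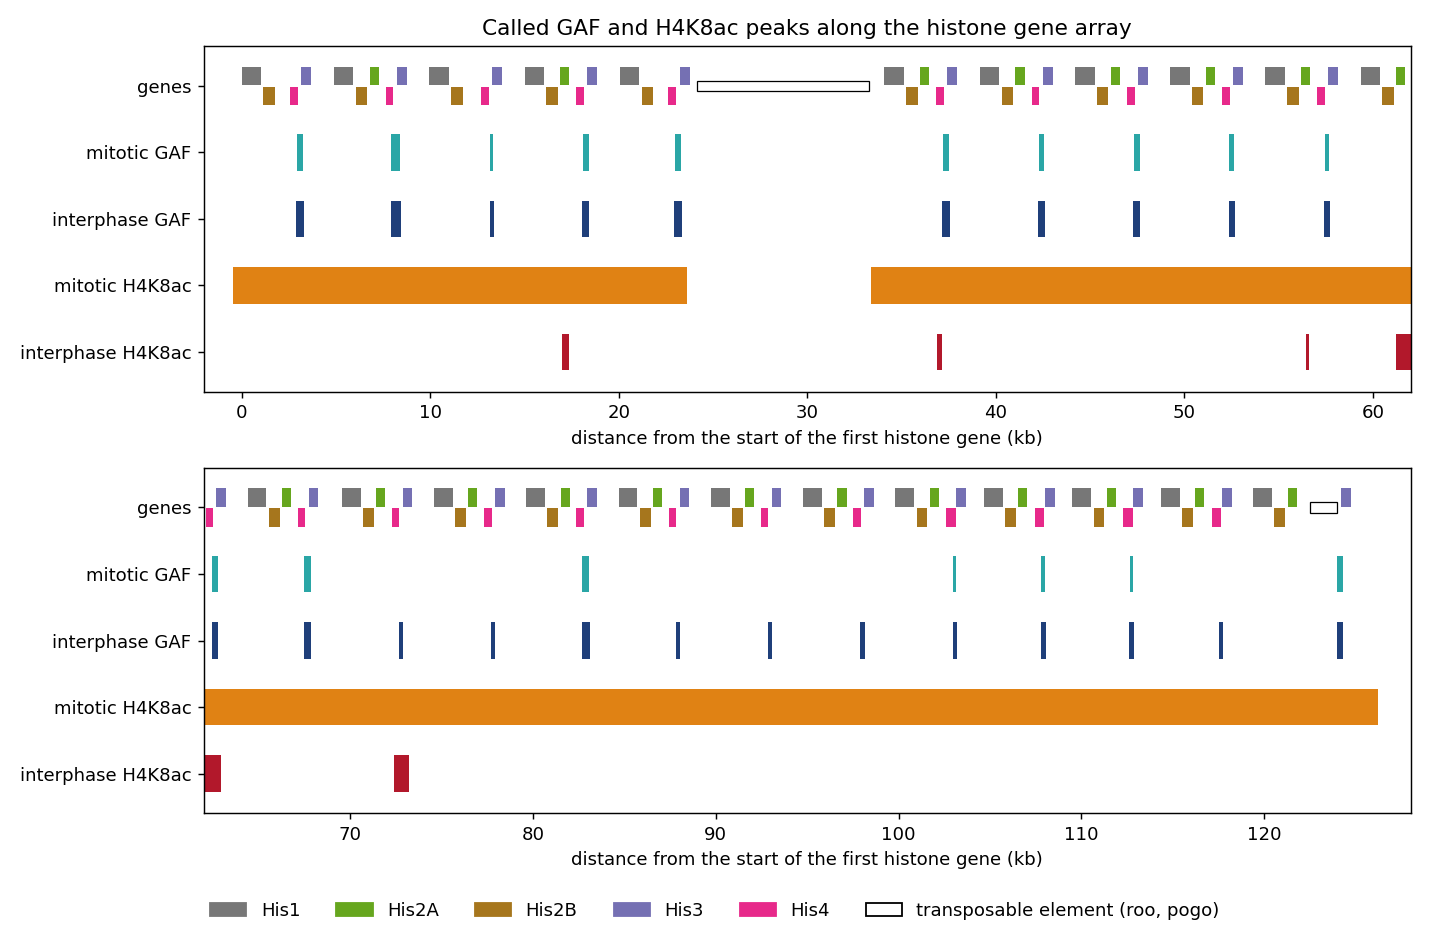
Position of histone genes and called peaks along the array, in kb from the start of the first histone gene, with the upper panel continued in the lower. Genes on the plus strand stand above those on the minus strand, open boxes are transposable elements, and bars are peaks of the 4 lists. There are 17 mitotic and 23 interphase GAF peaks, 1 for each His3 and His4 promoter that has one, while 2 mitotic H4K8ac peaks of 24.05 and 92.85 kb take in nearly the whole array and the 5 interphase H4K8ac peaks are 150 to 1700 bp long.

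Each peak sat on the run of alternating C and T. The centre of the run lay at positions -64 to -61 bp from the His3 TSS (negative upstream), and the run was inside all 17 mitotic and all 23 interphase peaks. Peak centres lay at a median of -80 bp in mitosis (-108 to -29 bp) and at a median of -81 bp in interphase (-104 to -4 bp). The His3 TSS itself was inside 15 of the 17 mitotic and all 23 interphase peaks. Since edges of peaks are in steps of 50 bp, offsets of this size are near the resolution of the lists.

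The number of GAGAG motifs was nearly constant. Mitotic peaks of the array held 4.24 ± 0.437 (SD over 17 peaks) and interphase peaks 4.17 ± 0.388 (SD over 23 peaks), with 4 or 5 in each peak and with a median of 4 in both whole lists. Of the interphase peaks, 19 held 4 and 4 held 5. The SD here is a spread over near copies and not over samples.

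GAGAG also occurred in the array outside the peaks. Of 196 matches in the array, 96 (49%) were in interphase GAF peaks and 72 in mitotic ones. Of the rest, 23 were in the His1 genes, 20 in the His2A genes, 46 in the His2B genes, 9 in transposable elements and 2 elsewhere. Within any 150 bp the peaks held up to 5 matches and the sequence outside the peaks up to 2. Single and paired motifs inside the His1, His2A and His2B genes were thus without a called GAF peak, while every cluster of 4 or 5 had one in interphase.

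The peak was often shorter in mitosis, and at 6 promoters it was not called. Of the 23 interphase peaks, 17 (73.9%) were overlapped by a mitotic peak, beside 31.2% of all 4970 interphase GAF peaks. In those 17 units the mitotic peak was shorter than the interphase peak in 14, of equal length in 3 and longer in 0, by a median of 50 bp and at most 100 bp. All 17 mitotic peaks lay inside their interphase peak and held the same number of GAGAG. The 6 interphase peaks without a mitotic peak were all 250 bp long with 4 GAGAG, whereas those with one were 200 to 550 bp long (median 350 bp). The deposited list of mitotically retained GAF peaks overlapped all 23, those 6 included. The lack of a mitotic peak at the 6 thus rests on the mitotic stage list alone, and why the lists differ was not tested. The 31.2% is by the mitotic stage list as well, and the share of all interphase peaks by the deposited list is not given here.

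The 6 promoters without a mitotic GAF peak had the same sequence. When the His3 promoters were sorted by identity over 300 bp (250 bp upstream of the TSS and 50 bp from it), they fell into 8 groups, numbered here along the chromosome. Group 6, with His3:CG33836, His3:CG33839, His3:CG33845, His3:CG33848, His3:CG33851 and His3:CG33863, held all 6 units without a mitotic peak and no other unit. The 17 units with one were spread over the other 7 groups. Around the base 100 bp upstream of the TSS, every one of the 15 pairs among the 6 units shared an exact match of 1374 to 7319 bp. Such matches were not confined to them, since pairs of a unit without and a unit with a mitotic peak shared up to 7319 bp (102 pairs, median 0 bp). Units were compared at the same distance from the TSS, without alignment. A pair that differed at that base was given 0 bp, whatever it shared nearby, so a 0 does not show that no match exists. Over the 300 bp the 6 are 1 sequence in 6 places, and their shared state is not 6 observations.

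The groups printed here were chosen after their values were seen. Group 6 lacked mitotic peaks, group 3 had the shortest mitotic peak, group 7 had the next shortest, and group 5 had the shortest run. Each is the window from 145 to 21 bp upstream of the His3 TSS on the plus strand of dm6, with capitals again marking GAGAG and CTCTC matches. Group 6 is from chr2L:21489685-21489809, group 7 from chr2L:21519964-21520088, group 3 from chr2L:21430110-21430234 and group 5 from chr2L:21459302-21459426.
Group 6, His3:CG33836: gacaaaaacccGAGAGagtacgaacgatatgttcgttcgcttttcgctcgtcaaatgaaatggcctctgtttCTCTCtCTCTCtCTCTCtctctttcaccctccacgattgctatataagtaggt
Group 7, His3:CG33854: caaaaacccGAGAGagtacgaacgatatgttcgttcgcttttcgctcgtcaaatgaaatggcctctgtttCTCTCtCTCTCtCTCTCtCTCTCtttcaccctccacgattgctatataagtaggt
Group 3, His3:CG33806: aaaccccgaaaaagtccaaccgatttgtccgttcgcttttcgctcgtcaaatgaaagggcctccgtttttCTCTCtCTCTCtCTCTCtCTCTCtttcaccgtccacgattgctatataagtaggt
Group 5, His3:CG33818: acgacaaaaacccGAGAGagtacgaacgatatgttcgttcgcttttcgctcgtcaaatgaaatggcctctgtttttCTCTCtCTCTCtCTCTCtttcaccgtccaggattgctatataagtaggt

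Group 6 was not alone in its number of motifs and length of run. Whether either bears on the mitotic peak was not tested. Group 6 had 4 GAGAG and a run of 23 bp, as did group 1 (His3:CG33803, His3:CG33812 and His3:CG33815), whose peaks were 300 bp in mitosis and 400 bp in interphase. Group 5, with the shortest run at 19 bp and 4 GAGAG, had peaks of 250 to 300 bp in mitosis and 300 to 350 bp in interphase. Group 7 (His3:CG33854, His3:CG33857 and His3:CG33860) had 5 GAGAG and a run of 25 bp, with peaks of 200 bp in mitosis and 250 to 300 bp in interphase. Group 3, without a match upstream of the run, had 4 GAGAG and a run of 25 bp, with peaks of 150 bp in mitosis and 200 bp in interphase. Group 4 (His3:CG33809, His3:CG33833 and His3:CG33842) had a run of 21 bp with peaks of 350 to 400 bp in mitosis and 400 bp in interphase. His3:CG33842 stands between 2 units of group 6 on the chromosome. Group 8, which is His3:CG33866 at the end of the array, had peaks of 300 bp in both stages.

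**Figure D3:**
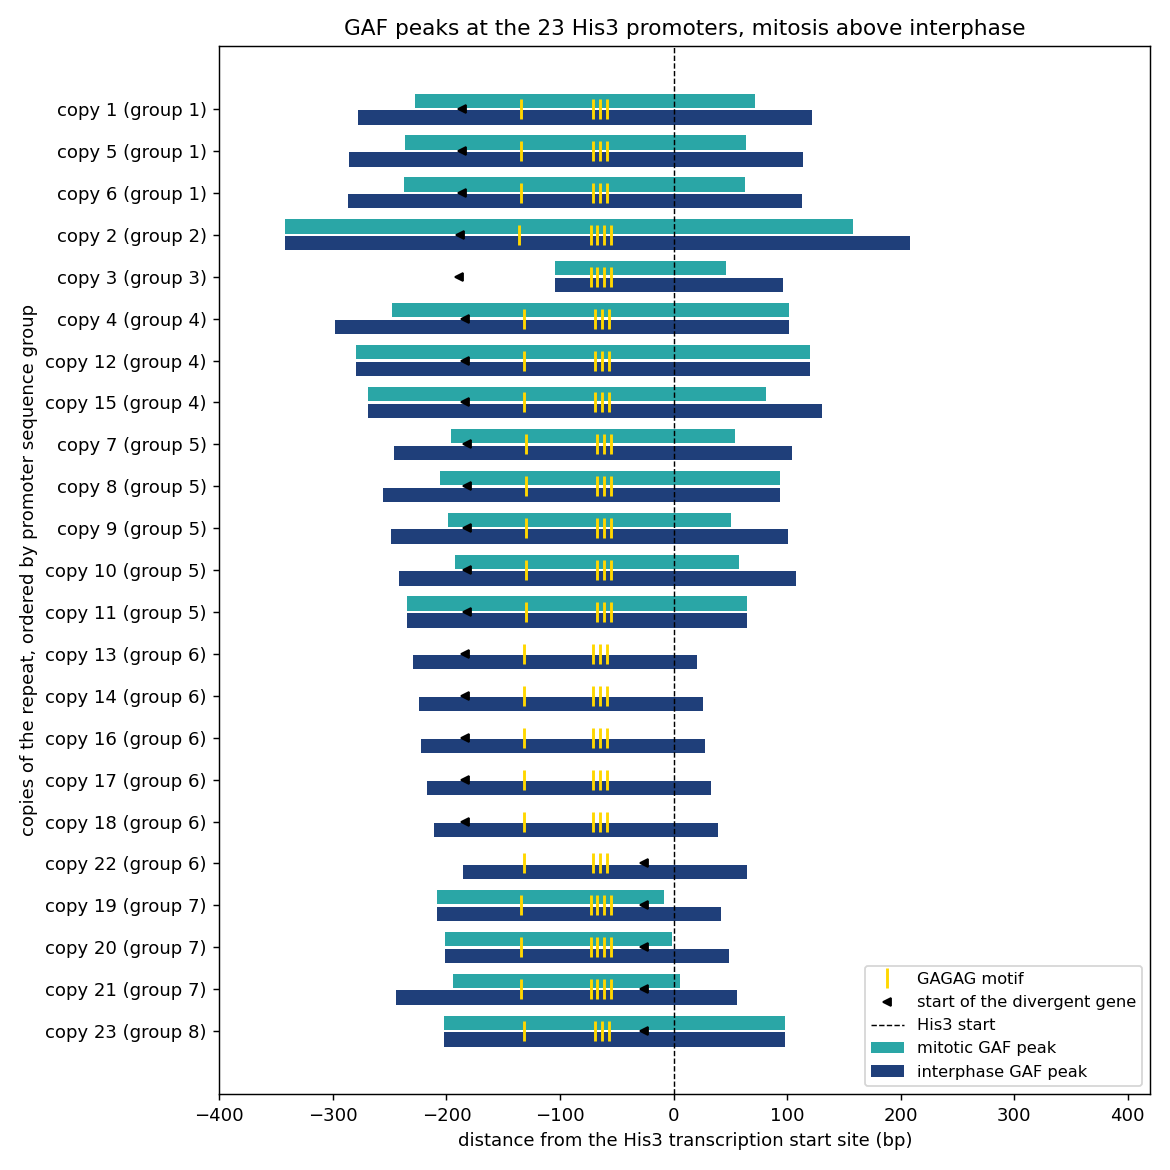
GAF peaks at the 23 His3 promoters, in bp from the His3 TSS, with the mitotic peak (light) drawn above the interphase peak (dark) of each unit and units ordered by promoter sequence group. Yellow ticks are GAGAG motifs and triangles the start of the divergent gene (His4, or a pseudogene in unit 23). All peaks span the cluster of motifs near 60 bp upstream, and the 6 units without a mitotic peak are those of group 6.

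These near copies limit what the lists can tell about a single unit. Of all 75 bp words in the array, the read length, 2.07% occurred once in the genome, and the median word occurred 21 times. In the array's GAF peaks 1.51% of words were unique in mitosis and 0.957% in interphase, beside 95.1% in 300 interphase GAF peaks drawn from elsewhere. Only His3:CG31613 (8.19%) and His3:CG33806 (12.7%) had unique words in their interphase peaks, and both had a mitotic peak. The median copy number of words was 9 in each of the 6 units without a mitotic peak, and 9 to 22 (median 21) in the 17 units with one. Reads were paired, and a pair spans more bases than such a word. How reads that match several places were assigned is not given in the sources used here, and its part in the differences between units was not tested.

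Short histone peaks were overlapped by mitotic peaks more often than short peaks elsewhere. Among interphase peaks with 4 or 5 GAGAG and a length of 200 to 250 bp, 3 of 9 in the array (33.3%) and 0 of 211 at other loci overlapped a mitotic peak. Taking these peaks as independent, 0 of 211 would still allow about 3 counts, or 1.42%, which is a rough guide and not a test. The 9 include the 6 units of group 6, which share 1 promoter sequence, and the 3 overlapped ones are of groups 3 and 7. At 300 to 350 bp, 7 of 7 in the array, of groups 5, 7 and 8, and 1 of 216 at other loci (0.463%) did so. At 400 to 550 bp the counts were 7 of 7 in the array and 168 of 454 at other loci (37%). Over the 3 lengths together, 19.2% of such peaks at other loci overlapped a mitotic peak. The ranges were chosen with the data in view and no test was made, since the units of the array are not independent and few of their 75 bp words are unique.

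**Figure D4:**
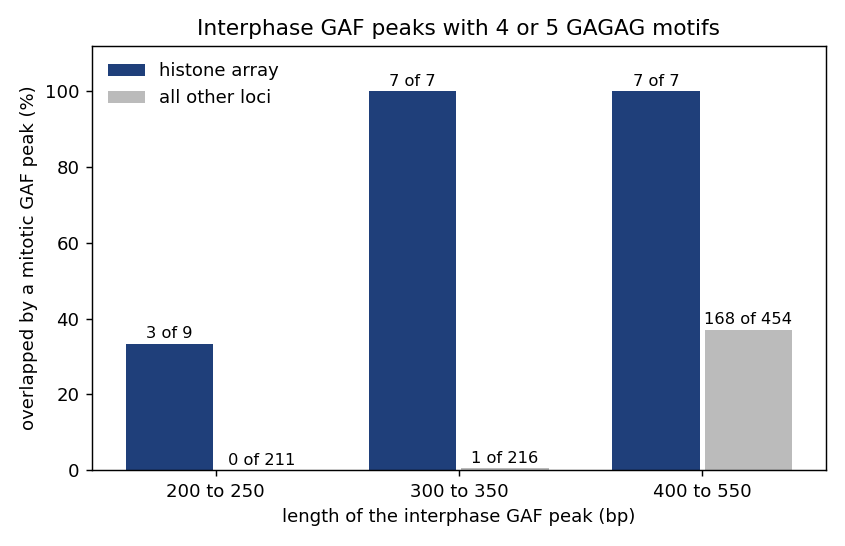
Share of interphase GAF peaks with 4 or 5 GAGAG that were overlapped by a mitotic GAF peak (%, vertical axis) by the length of the interphase peak (bp), in the histone array (dark) and at all other loci (grey), with counts above the bars. In the array 3 of 9, 7 of 7 and 7 of 7 peaks were overlapped, against 0 of 211, 1 of 216 and 168 of 454 at other loci.

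Called H4K8ac peaks covered the array in mitosis and little of it in interphase. In the mitotic list all 111 histone genes had a peak within 500 bp, beside 48.3% of all annotated genes, and all 111 promoters carried one, beside 35.1%. In the interphase list 16 genes (14.4%) had a peak within 500 bp, beside 50% of all annotated genes, and 6 promoters (5.41%) carried one, beside 34.5%. There were 95 histone genes (85.6%) with a mitotic and no interphase peak within 500 bp, a state found in 3.99% of all annotated genes. H4K8ac is generally associated with open, active chromatin. These calls rest on a fixed threshold after subtraction of input, at a locus with fewer units in the assembly than in fly genomes. How far that bears on the shares set beside all genes, or on the contrast of stages, was not tested.

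The mitotic signal was called as 2 peaks. The first, chr2L:21416501-21440551 (24.05 kb), was the 32nd longest of 5405 and began 452 bp before His1:CG33801. The second, chr2L:21450351-21543201 (92.85 kb), was the longest of the list, began 701 bp before His1:CG33813 and ended 1519 bp past His3:CG33866. The longest interphase peak anywhere was 57.9 kb. The space between the 2 mitotic peaks held the roo element, of which 0 bp were covered, while a pogo element of 1471 bp near the end of the array was covered throughout.

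Coverage by base pairs showed the same contrast between stages. Mitotic H4K8ac peaks covered 92.1% of the array and 99.8% of the bases of the histone genes, and interphase peaks covered 2.61% of the array and 3.67% of those bases. Over the genome the lists covered similar shares, 9.45% in mitosis and 9.16% in interphase. In mitosis 110 of the 111 genes were covered over their whole length, beside 10.8% of all annotated genes. The exception was His3:CG33812 next to the roo element, with 364 of 529 bp covered. In interphase 1 gene was covered throughout, beside 10.8% as well. The 2 mitotic H4K8ac peaks took in all 17 mitotic GAF peaks of the array (5 and 12). They also took in the promoters without a mitotic GAF peak. Peaks this long cannot show whether units with and without a mitotic GAF peak differ in H4K8ac.

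The 5 interphase H4K8ac peaks were 150 to 1700 bp long, and 4 of them were shorter than the median of the whole interphase list, which was 1100 bp. The peak at chr2L:21433951-21434301 was on His2A:CG33808, that at chr2L:21453851-21454101 on His4:CG33901 and that at chr2L:21473401-21473551 on His2A:CG33826. None of these 3 reached a TSS. The 1700 bp peak at chr2L:21478201-21479901 held the start sites of His4:CG33891 and His3:CG33830 and overlapped His2A:CG33829. The 800 bp peak at chr2L:21489351-21490151 held those of His4:CG33887 and His3:CG33836, a unit of group 6 without a mitotic GAF peak. No His1 or His2B gene was overlapped, although 3 His2B genes were within 500 bp of a peak.

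As for GAF, few words set single units apart. In the array's H4K8ac peaks 1.87% of 75 bp words were unique in mitosis and 0% in interphase, with medians of 21 and 22 copies. The maximum gap described for peak calling is 200 bp, but the smallest gap between neighbouring peaks was 2000 bp in both H4K8ac lists. A long peak may therefore hold shorter stretches below the threshold, and how far the lengths and coverage of the mitotic peaks rest on this distance was not tested.

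Histone genes outside the tandem array were examined for comparison. The 6 were His2Av, His3.3A and His3.3B, which encode replication-independent variants, His4r, a histone H4 gene outside the array, BigH1, the linker histone of early embryos, and cid, the centromeric H3 variant. Within 500 bp, 0 of 6 had a mitotic GAF peak (7.68% of all annotated genes) and 1 had an interphase GAF peak (17.6%), counts too small to set these genes apart from the rest. All 6 had H4K8ac peaks in mitosis (48.3% of all annotated genes) and in interphase (50%). The 1 with GAF was His2Av, under a broad interphase peak at chr3R:26865951-26870751 (4800 bp) that held 2 GAGAG, against 4 or 5 in the 200 to 550 bp peaks of the array.

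A further list held 11 genes that build the histone locus body, process histone mRNA or were listed as regulators of histone genes (mxc, mute, FLASH, Lsm10, Lsm11, Slbp, Clamp, abo, Trf2, Hinfp and wge). Within 500 bp, 1 had a GAF peak in mitosis (7.68% of all annotated genes) and 1 in interphase (17.6%), and these counts too are small. In each stage 10 had an H4K8ac peak, beside 48.3% of all annotated genes in mitosis and 50% in interphase. The GAF peaks were at Trf2, a TBP-related factor, with 4 in each stage and none on its annotated promoter. FLASH, which acts in processing of histone mRNA, had no mitotic H4K8ac peak, and Lsm11, a subunit of the U7 particle that cleaves histone mRNA, had no interphase one.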

How the data were processed

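ChIP and input libraries from 2 or 3 samples of each stage were sequenced as 75 bp paired reads. Per the labels and methods, the authors trimmed reads with Cutadapt 1.16 (quality 20, reads under 30 bp removed), mapped them to dm6 with Bowtie2, subtracted input in 50 bp bins scaled to depth, averaged replicates and kept runs over a fixed threshold (100 for GAF, 22 for H4K8ac). The deposited lists hold chromosome, start and end, with no counts or scores; 4 stage lists and the authors' list of retained GAF peaks were used here. Lengths of peaks are end minus start.

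Overlap was at least 1 bp, with genes from Ensembl release 115 without transposable elements and sequence from the RefSeq copy of dm6. Python 3.11.15, NumPy 2.4.6, pandas 2.3.3 and Matplotlib 3.10.9 were used, and the overlap, motif and copy-number steps were tested on simulated data. No test over samples was possible. Single genes are named as those nearest a GAF peak, the ends of the array or the units whose sequence is printed. The members, gene lists and alternatives were chosen with earlier results of these data known, and sequence groups, length ranges and copy numbers after the peaks were seen.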

Additional observations from a re-analysis of the deposited data

How the results depend on the processing

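Of 52 alternative counts and means, 36 stayed within 1.5 times the reported value and 16 did not. With peaks within 5000 bp, which is about the length of the unit, the genes counted were 98 for mitotic GAF, 111 for interphase GAF and 49 for interphase H4K8ac. With peaks of at least 400 bp only, they were 4 (and 4 promoters) for mitotic GAF, 14 (and 14 promoters) for interphase GAF and 7 for interphase H4K8ac. With at least 50% of the gene covered, they were 0 for mitotic GAF, 0 for interphase GAF and 7 for interphase H4K8ac. With peaks on the gene itself, 8 genes had interphase H4K8ac. Shares of all annotated genes under these rules are not given here. These counts thus cannot show how far the array differs from other genes. Overlapping matches gave 10.4 GAGAG per mitotic and 10.5 per interphase peak, and matches on the plus strand alone gave 0.941 and 0.957. Counts of genes with a mitotic H4K8ac peak stayed within 1.5 times under every alternative tried for them, as did the number of retained GAF peaks, which was 17 at a reciprocal overlap of 50% and 23 by the authors' list. By the authors' list, however, no interphase GAF peak of the array was without a mitotic one, and the 6 units of group 6 counted as retained. The share of all interphase GAF peaks by that list is not given here.

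Limits are those of the lists. Replicates are pooled, and none was left out. No paired analysis was possible because the lists hold no values of single samples. GAF lists average 2 mitotic and 3 interphase samples, a difference whose part in the lengths and numbers of peaks was not tested. Without height or depth, an absent peak means a mean signal below a threshold and not absence of GAF or H4K8ac, and near copies of the unit share nearly all their 75 bp words.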

Other observations

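The 8 histone pseudogenes annotated in or beside the cluster differed in their peaks. A GAF peak was within 500 bp of 1 of them in mitosis (7.68% of all annotated genes) and of 1 in interphase (17.6%), in both stages His-Psi:CR33867. This pseudogene stands in the place of His4 beside His3:CG33866, and the peak on their shared promoter, chr2L:21540951-21541251, held 4 GAGAG in both stages. Mitotic H4K8ac peaks reached 5 of the 8 (48.3% of all annotated genes) and interphase ones reached 1 (50%), His-Psi:CR31614. These counts are too small to set the pseudogenes apart from all annotated genes. The 3 without any peak were His-Psi:CR31616, His-Psi:CR31615 and His-Psi:CR31754, which lie before the first histone gene and outside the mitotic H4K8ac peak at chr2L:21416501-21440551.

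Genes annotated as protein-coding gave similar shares to all annotated genes. Within 500 bp, 8.5% had a mitotic and 19.5% an interphase GAF peak, and 55.4% had a mitotic and 57.9% an interphase H4K8ac peak.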
